A study of Mus musculus with 4 samples.

Results

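The genes described here encode the heterogeneous nuclear ribonucleoproteins (hnRNPs) and related RNA-binding proteins that act on splicing, such as the polypyrimidine tract binding (PTB), FET, CELF and MBNL proteins. They were chosen by symbol from a list of 37 names. Of these names 36 had a row among the 55401 genes of the count table, and 1 was not analysed here. All 36 passed the filter on low counts and were tested together with the other genes, 17344 in all. The series belongs to a study of ZFP207 and the U1 small nuclear ribonucleoprotein (snRNP), which recognises 5′ splice sites. The comparison asks what changes in newly made RNA when the U1 protein SNRNP70 is depleted.

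The cells were 129/Ola mouse embryonic stem cells, labelled SNRNP70AID, and carried an auxin-inducible degron on SNRNP70, so that auxin (IAA) directs the tagged protein to degradation. They were compared without auxin (0 h) and after 5 h of IAA, with 2 libraries for each time. The labels give the genotype of the 0 h cells as WT and that of the 5 h cells as "SNRNP70 degration", although all 4 titles name the degron line. The culture medium contained serum and leukemia inhibitory factor. No library from auxin-treated cells without the degron was used here, so an effect of auxin itself and one of SNRNP70 loss cannot be told apart. Whether the line is 1 clone is not given in the sources used here. Newly made RNA was labelled with 4-thiouridine (4sU), tagged with biotin, caught on streptavidin and sequenced. The series text states 2 independent replicates a group. The sources do not give the labelling time, a spike-in or whether the replicates were separate cultures. The p-values therefore measure the spread between these libraries only.

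hnRNPs bind nascent transcripts as they leave RNA polymerase II, and many of them block splice sites or silence exons, in opposition to the SR proteins, which help define exons. Several also compete with or assist U1 snRNP at 5′ splice sites. Many genes of these proteins are known to hold ultraconserved elements with a poison exon or a retained intron, through which the protein lowers its own messenger RNA. Gene-level counts do not separate spliced from unspliced RNA or one isoform from another.

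Library totals ran from 7174772 to 17752887 counts. On log2 CPM (counts scaled to a library size of 1e6), Pearson's r over the tested genes was 0.969 between the 0 h replicates, 0.965 between the 5 h replicates and 0.906 to 0.931 between libraries of different times. Marker levels here are scaled by library total only, unlike the TMM-scaled CPM of the genes below. All 8 stem cell markers, such as Nanog and Esrrb, lay above 10 CPM, and their summed level was 3973 to 4149 CPM at 0 h and 3389 to 3564 CPM at 5 h. In the TMM-scaled test described below Sox2, Klf4 and Pou5f1 rose (log2 fold change 0.86, 0.61 and 0.36). Nanog (-0.27) and Tfcp2l1 (-0.52) fell, and Esrrb, Zfp42 and Dppa5a did not pass. The summed level of 6 fibroblast feeder markers was 11.6 to 12.4 CPM at 0 h and 11.2 to 13.5 CPM at 5 h, with 2 of them at 0 in every library. Summed levels at 0 h and 5 h were 56.2 to 58.6 and 33.2 to 38.5 CPM for 6 neural markers (1 at 0), 0.976 to 5.07 and 4.25 to 6.20 CPM for 4 endoderm markers, and 8.36 to 8.51 and 4.92 to 6.38 CPM for 4 mesoderm markers. Their part in the results below was not tested.

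Labelled RNA of most of these genes was a larger part of the labelled pool after 5 h of auxin. The 36 genes together took 1.36% (95% exact binomial interval 1.35 to 1.36) and 1.42% (1.41 to 1.43) of all counts in the 0 h libraries. They took 1.68% (1.68 to 1.69) and 1.87% (1.86 to 1.87) in the 5 h libraries, and the times did not overlap. These intervals cover counting error only. Mitochondrially encoded RNA moved the same way, from 4.34% and 4.41% to 6.03% and 7.17% of the counts. In such bulk samples fewer cells of a type and less RNA per cell cannot be told apart.

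Calls rest on the quasi-likelihood test of edgeR at an adjusted p (Benjamini-Hochberg, over every tested gene) under 0.05. After TMM scaling, which assumes that most genes do not change, 25 of the 36 genes rose, 3 fell and 8 did not pass. With library totals as the scale 19 rose and 6 fell, and with mitochondrial RNA as the scale 2 rose and 16 fell. Of all tested genes 22.0% rose and 21.2% fell, or 43.2% either way. All 36 genes averaged over 50 CPM, and of the 4541 genes at that level 44.8% rose and 22.0% fell. The share of these genes that rose, 69.4%, therefore stood above both backgrounds, and the share that fell, 8.33%, below them. Their median log2 fold change (5 h over 0 h) was 0.55, against -0.02 for all tested genes and 0.23 for those over 50 CPM. At least 2-fold higher and called were 7 of these genes, against 7.60% of all tested genes, and none was at least 2-fold lower, against 10.2%. Of the 4541 genes over 50 CPM 312 were called at least 2-fold higher and 175 at least 2-fold lower. Of the 20 genes with an Hnrnp symbol 16 rose and 2 fell, and of the other 16 genes 9 rose and 1 fell.

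Directions therefore depend on the scale. A change of scale shifts all genes by nearly the same amount, so their order hardly changes by construction. Under library totals the typical tested gene was at a log2 value of -0.28 and the typical one of these genes at 0.28 (medians). Under mitochondrial scaling these medians were -0.86 and -0.30. The distance between both medians was 0.57, 0.57 and 0.56 under TMM, library totals and mitochondrial scaling. Of the 36 genes 31 lay above the median gene with TMM and 30 with each other scale. Since the shift is nearly common to all genes, these values are no independent support. Every "rose" and "fell" below refers to TMM, that is, to the bulk of labelled RNAs in the same library. The calls that held under both other scales and under all 14 alternatives were the rises of Hnrnpl and Hnrnph1 and the fall of Hnrnpr. Both other scales lower every gene, so they put the rises to the test but not the fall.

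**Figure D1:**
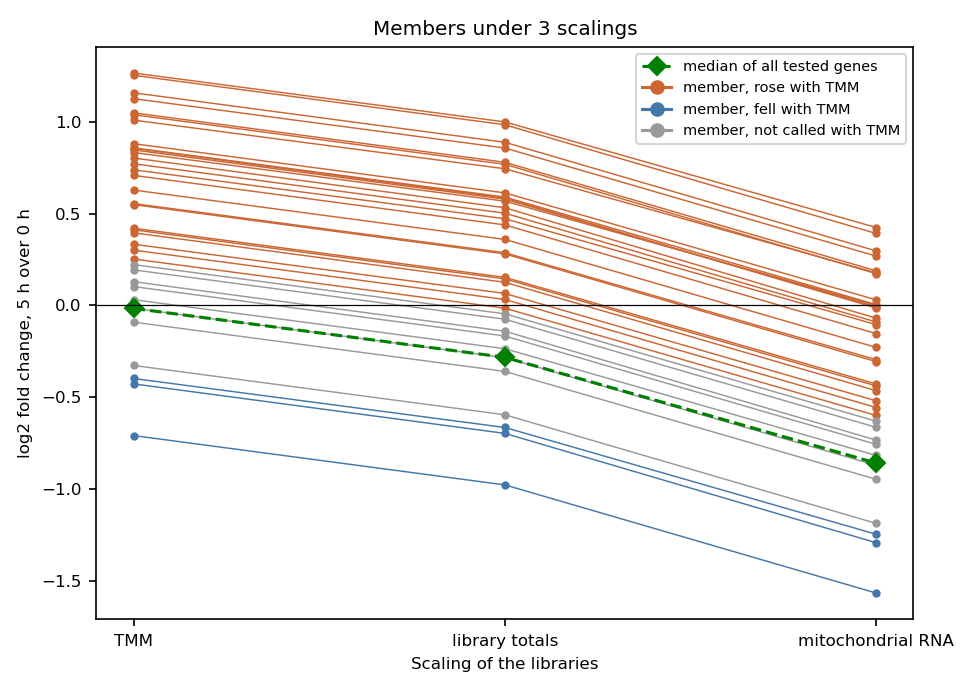
The log2 fold change (5 h over 0 h of auxin) of each of the 36 genes under 3 scalings of the libraries, coloured by its call with TMM, with the median of all tested genes as green diamonds. All lines run down in parallel by construction, the median of all genes from -0.02 to -0.86. With mitochondrial RNA as the scale 2 of the 36 genes rose and 16 fell.

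In 27 genes both 5 h libraries lay above both 0 h libraries, in 4 both lay below, and in 5 the times overlapped. Of all tested genes 36.0% had 5 h wholly above and 37.5% wholly below, or 73.5% in all. Of the 4541 genes over 50 CPM 2522 had 5 h wholly above and 1370 wholly below, and in 649 the times overlapped. Among the 36 genes the replicates differed by a median of 0.07 (log2) at 0 h and of 0.22 at 5 h, and the group means by 0.59. Over all tested genes these medians were 0.19, 0.24 and 0.59, so the members' groups lay no further apart than those of the typical tested gene. That set includes genes at far lower levels, whose replicates differed more at 0 h. The same medians were not computed for genes over 50 CPM. The spread at 5 h ran mostly one way, with 32 of the 36 genes higher in 5 h replicate 2 than in 5 h replicate 1, against 48.9% of all tested genes. Without 5 h replicate 1 29 genes rose and 2 fell. Without 5 h replicate 2 24 rose and 4 fell, without 0 h replicate 1 20 rose and 4 fell, and without 0 h replicate 2 19 rose and 1 fell. The same 19 of the 25 rises and the fall of Hnrnpr held in all 4 cases.

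**Figure D2:**
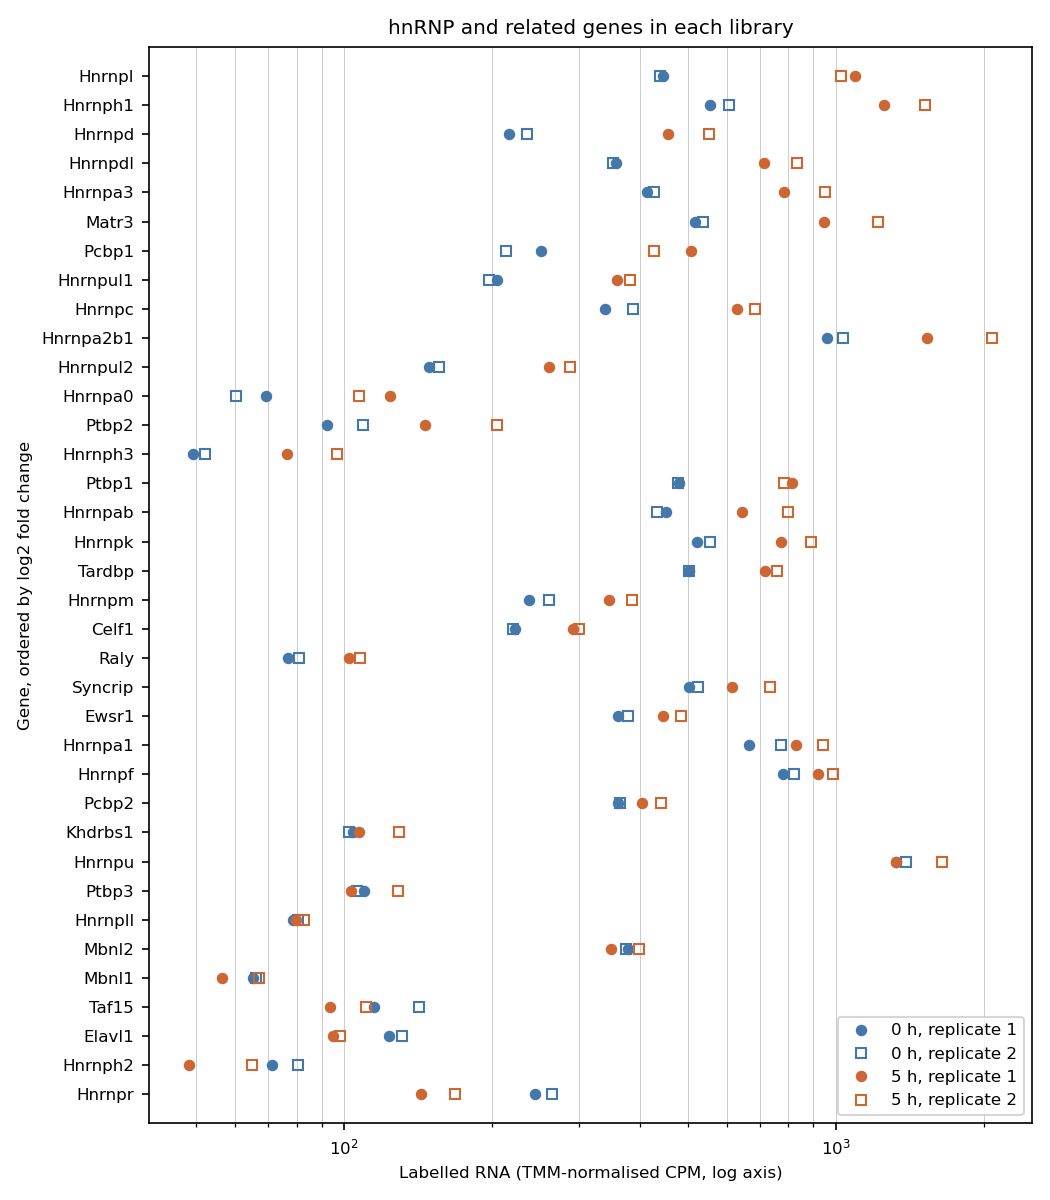
TMM-normalised CPM (log axis) of each gene in each of the 4 libraries, with 0 h in blue and 5 h in orange, replicate 1 as filled circles and replicate 2 as open squares, ordered by log2 fold change. In 27 genes the 5 h libraries lie above both 0 h libraries and in 4 below them with TMM scaling, while with mitochondrial scaling 2 genes rose and 16 fell.

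Promoter sequence is shown for 6 genes: the one that rose most, 2 of the 3 that fell, both genes without introns, and Ptbp1, which hosts a microRNA gene described below. Of the 36 genes 31 had an entry in a RefSeq promoter table (GRCm38.p6, the assembly of mm10). Hnrnpll, Khdrbs1, Matr3, Ptbp3 and Hnrnpul2 had none. Where a gene had several entries the first was taken, and the 250 bases before its start are given. The Hnrnpl window lies inside the RefSeq span of that gene, downstream of its outermost start. The Ptbp1 window lies inside the span of E130317F20Rik, a long noncoding RNA gene that overlaps Ptbp1. Capitals mark the GC box (GGGCGG) and the CCAAT box (CCAAT) on either strand.

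Hnrnpl (chr7:28810640-28810889, plus strand): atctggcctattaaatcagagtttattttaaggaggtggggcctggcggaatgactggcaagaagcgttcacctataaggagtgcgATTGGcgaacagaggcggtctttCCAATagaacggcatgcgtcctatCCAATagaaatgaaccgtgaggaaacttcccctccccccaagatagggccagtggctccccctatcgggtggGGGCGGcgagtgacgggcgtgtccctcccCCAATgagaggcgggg
Pcbp1 (chr6:86526190-86526439, minus strand): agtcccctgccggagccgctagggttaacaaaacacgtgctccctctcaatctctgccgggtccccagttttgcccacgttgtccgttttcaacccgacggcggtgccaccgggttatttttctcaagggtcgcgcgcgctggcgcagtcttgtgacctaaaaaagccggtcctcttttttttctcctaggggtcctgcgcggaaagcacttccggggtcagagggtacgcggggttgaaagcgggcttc
Hnrnpa0 (chr13:58128557-58128806, minus strand): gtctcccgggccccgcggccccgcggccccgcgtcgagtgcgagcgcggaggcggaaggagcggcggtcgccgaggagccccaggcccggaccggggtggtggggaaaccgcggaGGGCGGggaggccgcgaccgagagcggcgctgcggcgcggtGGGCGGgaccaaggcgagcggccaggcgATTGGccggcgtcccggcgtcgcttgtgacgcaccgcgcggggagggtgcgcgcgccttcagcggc
Ptbp1 (chr10:79854182-79854431, plus strand): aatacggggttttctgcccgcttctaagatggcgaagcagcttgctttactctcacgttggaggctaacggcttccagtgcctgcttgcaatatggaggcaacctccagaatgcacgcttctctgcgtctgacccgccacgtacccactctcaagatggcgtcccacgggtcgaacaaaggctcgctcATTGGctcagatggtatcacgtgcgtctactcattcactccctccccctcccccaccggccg
Hnrnph2 (chrX:134600929-134601178, plus strand): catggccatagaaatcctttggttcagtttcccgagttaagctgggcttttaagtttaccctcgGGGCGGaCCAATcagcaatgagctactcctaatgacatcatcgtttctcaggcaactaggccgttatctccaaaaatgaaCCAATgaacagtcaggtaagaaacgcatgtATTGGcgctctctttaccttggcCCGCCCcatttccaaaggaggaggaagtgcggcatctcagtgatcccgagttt
Hnrnpr (chr4:136310692-136310941, plus strand): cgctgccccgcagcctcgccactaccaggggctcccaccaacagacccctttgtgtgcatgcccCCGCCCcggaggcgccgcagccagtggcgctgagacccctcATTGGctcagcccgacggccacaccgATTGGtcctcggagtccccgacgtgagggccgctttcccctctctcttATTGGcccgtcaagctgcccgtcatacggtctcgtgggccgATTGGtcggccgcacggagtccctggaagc

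The first 4 of these genes rose and the last 2 fell. Hnrnpl, which rose most, and Hnrnpr, which fell most, each held 1 GC box and 4 CCAAT boxes, so these letters were alike at both ends of the range. Hnrnpa0 had 2 GC boxes and 1 CCAAT box in a window of 81.2% G and C. In Ptbp1 1 CCAAT box and no GC box was found, and in Pcbp1 neither. Hnrnph2 had 2 GC boxes, 3 CCAAT boxes and 48.4% G and C. Among the 31 genes a GC box occurred in 21 (67.7%), against 32.9% of 27025 promoters in the table. The CCAAT box occurred in 17 (54.8%, against 34.5%), the TATA box (TATAAA) in 2 (6.45%, against 13.0%) and the E box (CACGTG) in 5 (16.1%, against 6.05%), each searched on both strands. The median G and C content was 65.6% in these genes and 52.0% in all. That background holds all promoters in the table, whether or not the gene was tested here. It was not matched for expression or for G and C content, so these shares do not show a trait particular to these genes. A GC box occurred in 15 of 23 genes that rose, 2 of 3 that fell and 4 of 5 that did not pass. A CCAAT box occurred in 11, 3 and 3 of the same genes. These matches are descriptions of letters and not of bound sites.

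The A/B and D proteins pack nascent RNA and often repress splice sites in competition with SR proteins. All 7 of their genes rose with TMM, 6 rose with library totals, and with mitochondrial scaling none rose and 1, Hnrnpa1, fell. Hnrnpd (AUF1), which also binds AU-rich elements in messenger RNA, lay at 216 and 235 CPM in the 0 h libraries and at 455 and 551 CPM in the 5 h libraries. Its log2 fold change was 1.16 ± 0.11 (SE) with edgeR adjusted p = 3.44e-05. Its paralogue Hnrnpdl, whose own 3′ end is known to be autoregulated, had 358 and 352 CPM at 0 h and 714 and 834 CPM at 5 h (1.13 ± 0.10). Both genes about doubled, and in neither did the times overlap. In RefSeq (GRCm38.p6) Hnrnpd lies on chromosome 5 from 99955935 to 99979130 and Hnrnpdl on the same chromosome from 100033577 to 100039936.

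Hnrnpa3 had 413 and 426 CPM at 0 h and 786 and 949.7 CPM at 5 h, a log2 fold change of 1.05 ± 0.10 (edgeR adjusted p = 4.24e-05). Hnrnpa2b1, a reader in messenger RNA transport and microRNA sorting, had 959.8 and 1035 CPM at 0 h and 1531 and 2077 CPM at 5 h. It rose 1.81-fold, although its 5 h replicates stood far apart. Hnrnpab, a CArG box binding factor, rose from 450.4 and 433 CPM to 644 and 799.8 CPM (0.71 ± 0.11). Hnrnpa0, a gene without introns, rose from 69.2 and 60.2 CPM to 124 and 107 CPM (0.83 ± 0.12), and here replicate 1 was the higher one at 5 h. Hnrnpa1, the best known repressor of the group, changed least, with 666 and 774 CPM at 0 h and 830.4 and 943 CPM at 5 h (0.30 ± 0.10, edgeR adjusted p = 0.0334). Its call was lost without 0 h replicate 1 (edgeR adjusted p = 0.361), 0 h replicate 2 (edgeR adjusted p = 0.0612) or 5 h replicate 2 (edgeR adjusted p = 0.0708). Hnrnpa1 has near-identical processed copies in the genome, so the assignment of its reads is uncertain.

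The C proteins form a tetramer on long uridine-rich stretches and shield introns from use as exons. Hnrnpc rose from 339 and 386 CPM at 0 h to 629 and 684 CPM at 5 h, or 1.81-fold (log2 0.86 ± 0.10, edgeR adjusted p = 8.11e-05), and its value was 0.00 with mitochondrial scaling. The related gene Raly rose less, from 76.8 and 80.9 CPM to 102 and 108 CPM (0.41 ± 0.10). Its call was lost without 0 h replicate 1 (edgeR adjusted p = 0.0943) or 0 h replicate 2 (edgeR adjusted p = 0.0599), and its value was -0.44 with mitochondrial scaling.

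The F and H proteins bind runs of guanines, which often lie beside 5′ splice sites, and with TMM 3 of their genes rose and 1 fell, against 1 risen and 2 fallen with mitochondrial scaling. Hnrnph1 had 555 and 606 CPM at 0 h and 1251 and 1516 CPM at 5 h, a log2 fold change of 1.25 ± 0.10 (edgeR adjusted p = 2.12e-05). Hnrnph3 rose from 49.2 and 52.2 CPM to 76.5 and 96.5 CPM (0.77 ± 0.14). In both genes the 5 h libraries lay well above the 0 h libraries. Hnrnpf, with 779 and 821 CPM at 0 h, reached 918 and 989 CPM at 5 h (0.25 ± 0.08, edgeR adjusted p = 0.0321), and was at -0.02 with library totals and -0.60 with mitochondrial scaling. Its call was lost without 0 h replicate 1 (edgeR adjusted p = 0.311) or 0 h replicate 2 (edgeR adjusted p = 0.181).

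Hnrnph2, the X-linked paralogue of Hnrnph1, fell, from 71.4 and 80.7 CPM at 0 h to 48.3 and 65.0 CPM at 5 h. Its log2 fold change was -0.43 ± 0.15 with edgeR adjusted p = 0.0411. The times did not overlap, but the call was lost with DESeq2 (adjusted p = 0.0620) and with DESeq2 size factors in edgeR (edgeR adjusted p = 0.0516). It was also lost with glmTreat against a fold of 1.2 (adjusted p = 0.134), without 0 h replicate 2 (value -0.34) and without 5 h replicate 1 (-0.22). Across its alternatives the adjusted p ran from 7.56e-05 to 0.221. Hnrnph1 lies on chromosome 11 from 50375257 to 50386528 and Hnrnph2 on chromosome X from 134601179 to 134607060.

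The KH domain proteins bind poly(C) stretches and act in splicing, messenger RNA stability and translation. Pcbp1, a gene without introns, doubled, from 251 and 213 CPM at 0 h to 508 and 427 CPM at 5 h (1.01 ± 0.11, edgeR adjusted p = 8.50e-05). Hnrnpk rose from 521 and 555 CPM to 775 and 889 CPM (0.63 ± 0.09). Pcbp2, from which Pcbp1 is thought to have arisen by retrotransposition, had 360.3 and 364 CPM at 0 h and 403 and 442 CPM at 5 h. Its log2 fold change of 0.22 ± 0.09 did not pass (edgeR adjusted p = 0.0623), although its times did not overlap and DESeq2 (adjusted p = 0.0456) and limma-voom (adjusted p = 0.0408) called it, as did edgeR without 5 h replicate 1 (adjusted p = 0.00544). With mitochondrial scaling the values of Pcbp1, Hnrnpk and Pcbp2 were 0.18, -0.23 and -0.63.

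The L and PTB proteins bind CA-rich and pyrimidine-rich RNA and are known to silence each other's exons. Hnrnpl had the highest log2 fold change of the 36 genes, 1.27 ± 0.08 (edgeR adjusted p = 7.96e-06), with 444 and 438 CPM at 0 h and 1096 and 1026 CPM at 5 h. It stood at percentile 93.2 of all tested genes, so about 7 in 100 of them had a higher value. Its paralogue Hnrnpll, which controls splicing in lymphocytes, was level, with 78.6 and 80.5 CPM at 0 h and 79.7 and 82.9 CPM at 5 h (0.03 ± 0.11). Hnrnpl lies on chromosome 7 from 28808546 to 28822268 and Hnrnpll on chromosome 17 from 80029487 to 80062268.

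Ptbp1, the PTB protein of dividing cells, rose 1.67-fold, with 481 and 478 CPM at 0 h and 816 and 783 CPM at 5 h (0.74 ± 0.08, edgeR adjusted p = 7.76e-05). Ptbp2, the neural paralogue that PTBP1 is known to hold down by exon skipping and decay, rose as well, from 92.0 and 109 CPM to 146 and 204 CPM (0.80 ± 0.15). Ptbp1 and Ptbp2 thus rose together with TMM, with values of -0.10 and -0.07 under mitochondrial scaling. Ptbp3 had 109.6 and 106 CPM at 0 h and 103 and 129 CPM at 5 h, and its times overlapped (0.10 ± 0.12). Without 5 h replicate 1 Ptbp3 was at 0.26 and called (edgeR adjusted p = 0.0419), and without 5 h replicate 2 it was at -0.05.

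Hnrnpm, Hnrnpr and Syncrip (hnRNP Q) carry several RNA recognition motifs, and the last 2 are close paralogues. Hnrnpr fell most of all 36 genes, from 244 and 265 CPM at 0 h to 143 and 168 CPM at 5 h. It was 1.63-fold lower (log2 -0.71 ± 0.11, edgeR adjusted p = 0.000423), and its value lay between -0.81 and -0.59 when each library was left out. Syncrip went the other way with TMM, from 502 and 524 CPM to 615 and 735 CPM (0.40 ± 0.10), but not with mitochondrial scaling, where it was -0.46. Its call was lost without 0 h replicate 1 (edgeR adjusted p = 0.0659) or 0 h replicate 2 (edgeR adjusted p = 0.0602). Hnrnpm, a splicing silencer, rose from 238 and 261 CPM to 345 and 384 CPM (0.55 ± 0.10). Hnrnpr lies on chromosome 4 from 136310942 to 136345981 and Syncrip on chromosome 9 from 88449364 to 88482591.

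The U proteins are scaffold attachment factors that bind RNA and chromatin. Hnrnpul1 rose from 205 and 197 CPM at 0 h to 358 and 382 CPM at 5 h (0.88 ± 0.09, edgeR adjusted p = 4.92e-05), and Hnrnpul2 from 149 and 156 CPM to 261 and 288 CPM (0.85 ± 0.10). With mitochondrial scaling their values were 0.03 and -0.01. Hnrnpu itself had 1323 and 1389 CPM at 0 h and 1324 and 1642 CPM at 5 h, so the times overlapped and it did not pass (0.13 ± 0.10). Hnrnpu was called without 5 h replicate 1 (0.28, edgeR adjusted p = 0.00106) and was at -0.02 without 5 h replicate 2.

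The FET proteins bind nascent RNA and the polymerase, and EWSR1 and TAF15 are named from their fusions in sarcoma and their place beside TFIID. Ewsr1 had 361 and 378 CPM at 0 h and 445 and 485 CPM at 5 h (0.33 ± 0.09, edgeR adjusted p = 0.0108), and its call was lost without 0 h replicate 1 (edgeR adjusted p = 0.133) or 0 h replicate 2 (edgeR adjusted p = 0.0879). Taf15 had 115 and 142 CPM at 0 h and 93.5 and 111 CPM at 5 h, both lower, with a log2 fold change of -0.33 ± 0.13 that did not pass (edgeR adjusted p = 0.0650). It passed without 0 h replicate 1 (edgeR adjusted p = 0.0228) or 5 h replicate 2 (edgeR adjusted p = 0.0183), with no filter (0.0376), a stricter filter (0.0153) or counts divided by 4 (0.0260), and with library totals (0.00441). Without 0 h replicate 2 its value was -0.17. Over the alternatives its adjusted p ran from 9.71e-05 to 0.509. With mitochondrial scaling Ewsr1 was at -0.52 and Taf15 at -1.19.

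Khdrbs1 (Sam68), a STAR protein that links signalling to splicing, had 104 and 102 CPM at 0 h and 107 and 129 CPM at 5 h and did not pass (0.19 ± 0.11, edgeR adjusted p = 0.202). It passed without 5 h replicate 1 (edgeR adjusted p = 0.00929), while without 5 h replicate 2 its value was 0.070 (edgeR adjusted p = 0.643), and with library totals it was -0.076. CELF1 and the MBNL proteins act against each other on developmental exons. Celf1 rose from 222 and 220.3 CPM to 292 and 300.5 CPM (0.42 ± 0.09) and was at -0.43 with mitochondrial scaling. Its call was lost with library totals (edgeR adjusted p = 0.165) and without 0 h replicate 2, where the value was 0.41. Mbnl1 had 65.2 and 66.0 CPM at 0 h and 56.3 and 67.1 CPM at 5 h, and Mbnl2 379 and 375 CPM and then 349 and 397 CPM. In both the 0 h values lay between the 5 h values, and neither passed with TMM (-0.09 ± 0.13 and -0.02 ± 0.09). With library totals both fell, Mbnl1 at -0.36 (edgeR adjusted p = 0.0377) and Mbnl2 at -0.28 (edgeR adjusted p = 0.0223). With mitochondrial scaling they fell too, at -0.95 (edgeR adjusted p = 0.000716) and -0.87 (edgeR adjusted p = 0.000221). Without 5 h replicate 1 they were at 0.04 and 0.08.

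Matr3, a nuclear matrix protein that represses exons, doubled, from 517 and 538 CPM at 0 h to 946 and 1221 CPM at 5 h (1.04 ± 0.12, edgeR adjusted p = 8.0e-05). Tardbp (TDP-43), which silences cryptic exons and autoregulates through its own 3′ end, rose from 502 and 502 CPM to 717 and 758 CPM (0.55 ± 0.08). Elavl1 (HuR), a stabiliser of messenger RNAs, fell, from 123 and 131 CPM to 95 and 97.8 CPM (-0.40 ± 0.10, edgeR adjusted p = 0.00842). That call was lost with glmTreat against a fold of 1.2 (adjusted p = 0.0848) and without 0 h replicate 2, where the value was -0.36. With mitochondrial scaling Matr3 was at 0.17, Tardbp at -0.30 and Elavl1 at -1.25.

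**Figure D3:**
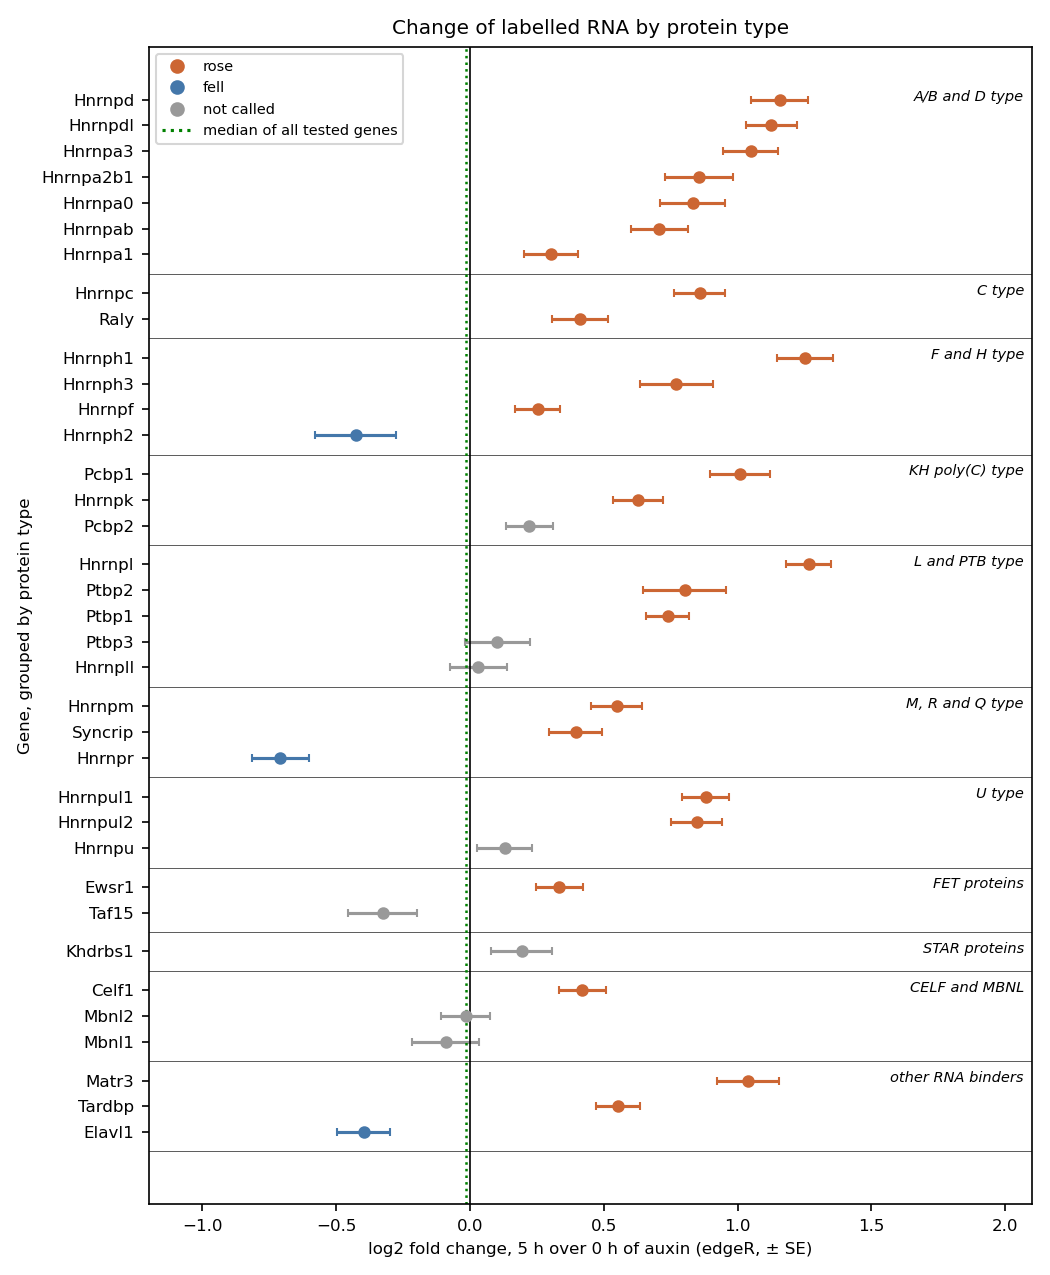
The log2 fold change (5 h over 0 h of auxin, TMM scaling) of each gene with its edgeR standard error, grouped by protein type and coloured by call, with the median of all tested genes, -0.02, as a dotted line. Most types hold genes that rose beside genes that fell or did not pass, as with Hnrnph1 (1.25) and Hnrnph2 (-0.43), and with mitochondrial scaling 2 genes rose and 16 fell.

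Because the direction of single genes depended on the scale, paralogues were set against each other within a library, where any scale cancels. For each of 19 pairs the log2 ratio of both counts was taken in each library with a pseudocount of 1 count. In 15 pairs the ratios at 5 h did not overlap those at 0 h, and no such share was computed for other gene pairs. Singly, 73.5% of all tested genes did not overlap, and of the 4541 genes over 50 CPM only 649 did. The count alone therefore says little about these pairs. With 2 libraries a group the exact two-sided permutation test cannot go below p = 0.333, which these 15 pairs reached, so no pair can pass at 0.05 and adjustment over the 19 pairs leaves none.

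The Hnrnph1 to Hnrnph2 log2 ratio was 2.96 and 2.91 at 0 h and 4.69 and 4.54 at 5 h, a 3.21-fold change of the ratio. Hnrnph1 against Hnrnpf went from -0.49 and -0.44 to 0.45 and 0.62, so Hnrnpf had more counts before auxin and Hnrnph1 had more after it. Hnrnpl against Hnrnpll went from 2.50 and 2.44 to 3.78 and 3.63, or 2.35-fold. In each of these pairs the shift was over 10 times the pooled SD of the replicates. Hnrnpr against Syncrip went from -1.04 and -0.98 to -2.10 and -2.13, a 2.15-fold fall of the ratio and the largest shift relative to its replicate SD (0.03).

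Pcbp1 against its intron-bearing relative Pcbp2 went from -0.52 and -0.77 to 0.33 and -0.05, or 1.73-fold. Hnrnpu against Hnrnpul2 went from 3.15 and 3.15 to 2.34 and 2.51. Hnrnpa1 lost ground against Hnrnpa3 (0.69 and 0.86, then 0.08 and -0.01) and against Hnrnpa2b1 (-0.53 and -0.42, then -0.88 and -1.14). Ewsr1 gained on Taf15 by 0.66, Ptbp1 on Ptbp3 by 0.64, Hnrnpd on Hnrnpab by 0.45, Hnrnpc on Raly by 0.45, Hnrnph1 on Hnrnph3 by 0.49 and Hnrnpk on Pcbp2 by 0.40. Mbnl1 against Mbnl2 differed by -0.08, and its times lay just apart. The 4 pairs whose times overlapped were Hnrnpd with Hnrnpdl (0.03), Hnrnpul1 with Hnrnpul2 (0.04), Ptbp1 with Ptbp2 (-0.05) and Hnrnpa0 with Hnrnpa3 (-0.21).

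**Figure D4:**
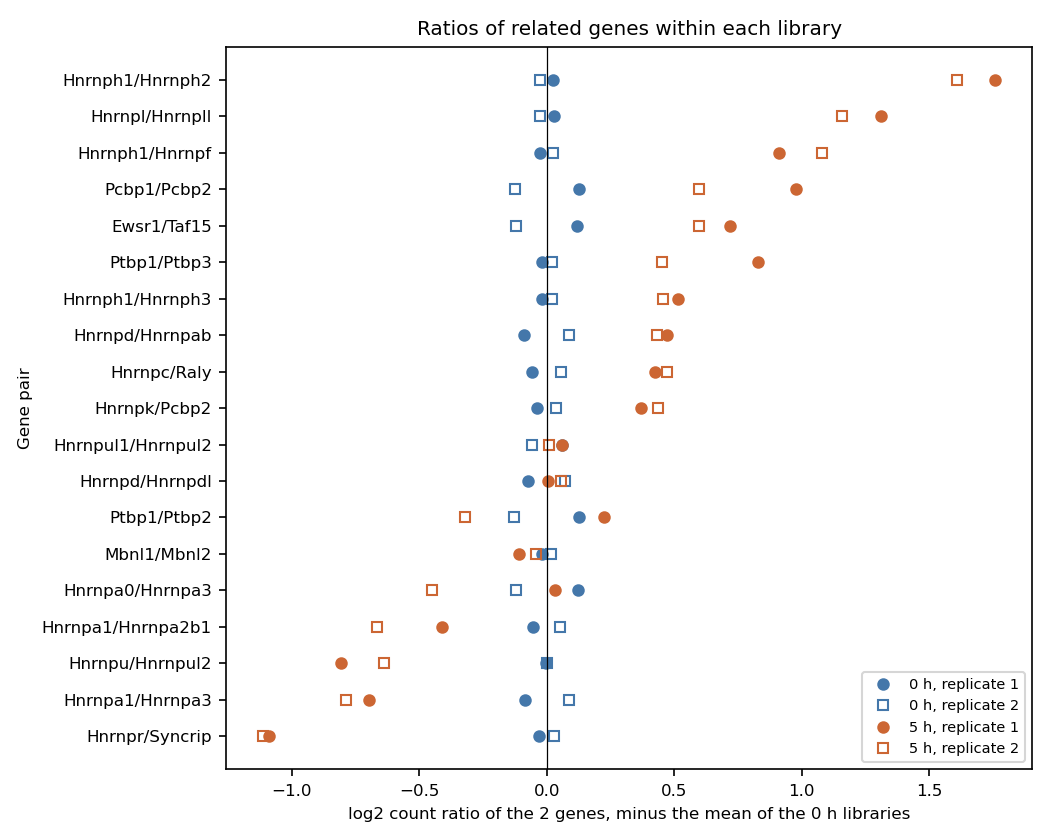
The log2 count ratio of each gene pair in each library, less the mean of its 0 h libraries, with 0 h in blue and 5 h in orange, replicate 1 filled and replicate 2 open. In 15 of 19 pairs the 5 h points lie apart from the 0 h points, from Hnrnph1/Hnrnph2 (1.68) at the top to Hnrnpr/Syncrip (-1.10) at the bottom.

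The make-up of the group was compared as well. As a share of the counts of all 36 genes, which also needs no scale, 12 genes were higher in both 5 h libraries, 18 were lower and 6 overlapped. On their own scale 73.5% of all tested genes did not overlap, and of the 4541 genes over 50 CPM 649 overlapped. Hnrnph1 went from 4.48% and 4.69% to 6.88% and 7.27%, and Hnrnpl from 3.59% and 3.39% to 6.03% and 4.92%. Hnrnpu, which gave the most counts of the group at 0 h, went from 10.7% and 10.7% to 7.28% and 7.87%, while Hnrnpa2b1 went from 7.75% and 8.0% to 8.42% and 9.95%. Hnrnpr fell from 1.97% and 2.05% to 0.787% and 0.806%. Shares of one whole are tied to each other, so a gain of some genes lowers the others. Counts also grow with transcript length, so these shares are not numbers of molecules.

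Gene span was set beside the changes because long genes as a whole were lower at 5 h. Both genes under 5 kb, Pcbp1 (1.71 kb) and Hnrnpa0 (2.68 kb), rose with TMM, with 1.01 and 0.83 against a median of 0.49 for all tested genes of that class, of which 32.1% rose and 4.71% fell, and were at 0.18 and 0.00 with mitochondrial scaling. Of 14 genes of 5 to 20 kb 12 rose and 1 fell (24.8% and 20.2% of all tested genes of that span). Of 14 genes of 20 to 50 kb 8 rose and 2 fell (18.8% and 31.6%). The medians of these genes were 0.75 and 0.29, against -0.01 and -0.21 for all genes of those classes. Of 4 genes of 50 to 100 kb 3 rose, Ptbp2, Celf1 and Raly, where 16.3% of all genes rose and 36.2% fell. Mbnl1 (157 kb) and Mbnl2 (156 kb) did not pass, where 9.29% of all genes rose and 29.7% fell.

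In all 32 of the 36 genes lay above the median of all tested genes of their own span class. These class medians and shares include genes at far lower levels and were not computed for genes over 50 CPM. Of the genes over 50 CPM at any span, 64.5% lay above the median of all tested genes. The 4 below the median of their class were Hnrnph2, Hnrnpr, Elavl1 and Taf15. Spearman's rho between span and log2 fold change was -0.45 over the 36 genes and -0.30 over 15033 tested genes with a span. Genes are not independent replicates and share the libraries, so no p is given. Of the genes that fell, Hnrnph2 spanned 5.88 kb, Hnrnpr 35.0 kb and Elavl1 40.4 kb. The longest that rose were Raly (80.1 kb), Celf1 (79.2 kb) and Ptbp2 (65.9 kb).

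**Figure D5:**
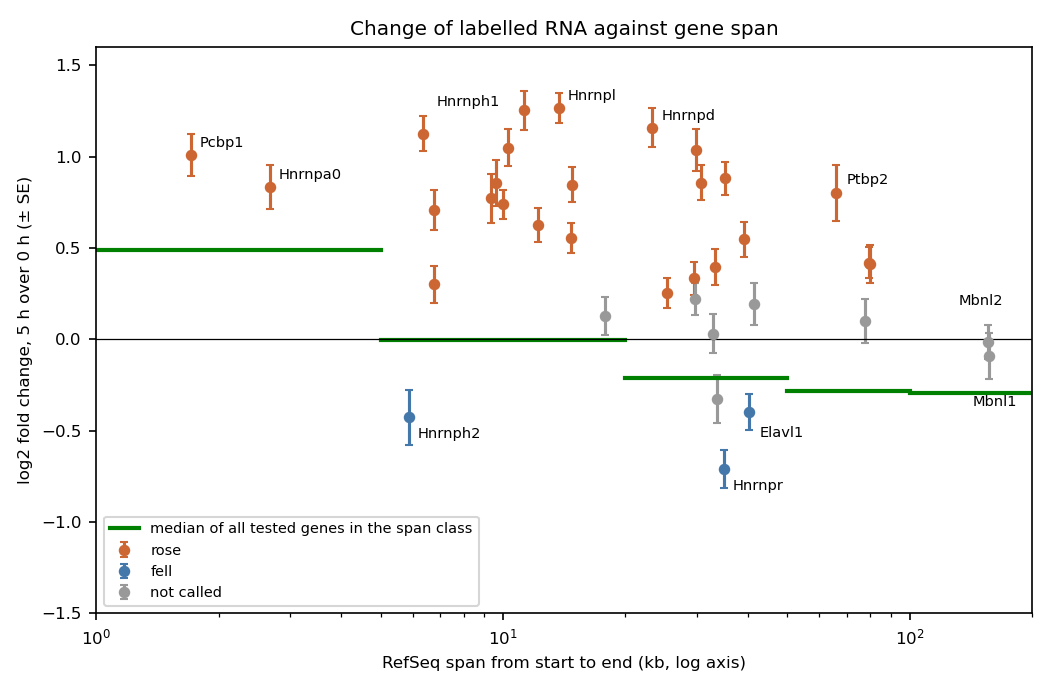
The log2 fold change (5 h over 0 h, TMM, ± SE) of each gene against its RefSeq span in kb on a log axis, coloured by call, with the median of all tested genes in each span class as green bars. Of the 36 genes 32 lie above the bar of their class, while Hnrnph2, Elavl1, Taf15 and Hnrnpr lie below it, and with mitochondrial scaling 2 of the 36 rose. The bars include genes under 50 CPM, unlike the 36 genes.

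RefSeq spans of 13 of the 36 genes overlapped another gene, and no source used here gives the strand setting of the counts. Reads of a member and of the gene that overlaps it therefore could not be told apart. Of the overlapping genes 16 had a row and 13 were tested. Most had far fewer counts than the member, with Rufy2 beside Hnrnph3 (54.8 and 57.5 CPM at 0 h, 46.5 and 52.2 CPM at 5 h) as an exception. Enoph1, beside Hnrnpdl, rose as well (57.2 and 57.9 CPM at 0 h, 102 and 119 CPM at 5 h, log2 0.94 ± 0.12). Masp2, which overlaps Tardbp, and Rhbdd3, which overlaps Ewsr1, fell (-2.44 ± 0.44 and -1.37 ± 0.26), unlike those hosts. Rmi1, at the start of Hnrnpk, did not pass (-0.04 ± 0.11). A short gene inside Hnrnpf, 4933440N22Rik, rose from 94 and 35 counts at 0 h to 259 and 114 counts at 5 h (log2 1.70 ± 0.27), against 0.25 for Hnrnpf. Gm26679, a long noncoding RNA gene inside Mbnl2, went from 24 and 10 counts to 0 in both 5 h libraries, while Mbnl2 did not pass.

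The spans of members also hold 2 microRNA genes. Their mature sequences are given, with the seed (bases 2 to 8) in capitals, to identify those rows, from RefSeq (GRCm38.p6).

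mmu-miR-6910-5p: uGGGGGUAgggcaccagugggca
mmu-miR-6910-3p: uCAUGGUUuccacccuuugucc
mmu-miR-7a-5p: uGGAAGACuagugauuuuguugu
mmu-miR-7a-1-3p: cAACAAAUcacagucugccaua

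The 4 seeds differ from each other. Mir6910 lies within Ptbp1 on chromosome 10 from 79862587 to 79862652, and also within Plppr3, which had 11 and 0 counts at 0 h and 85 and 0 counts at 5 h. The 0 h libraries held 9 and 2 counts of it and the 5 h libraries 70 and 21. Its log2 fold change of 3.19 ± 0.67 (edgeR adjusted p = 0.00306) was above that of Ptbp1 (0.74), although the difference was not tested. Mir7-1 lies within Hnrnpk on chromosome 13 from 58392779 to 58392886. Its row had 29 and 11 counts at 0 h and 48 and 20 counts at 5 h, and it did not pass (0.92 ± 0.52, edgeR adjusted p = 0.178), against 0.63 for Hnrnpk. These counts are low, and label on a microRNA precursor cannot be told apart from label on the host transcript or another overlapping gene.

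Related RNA-binding genes outside the list were counted the same way, and unlike the 36 genes several of them averaged under 50 CPM. Of 41 such genes 35 were tested, 14 rose, 6 fell and 15 did not pass, with a median of 0.24 with TMM. Mitochondrial scaling gave 1 risen and 19 fallen genes and a median of -0.60. Khsrp, a KH-type splicing regulator, rose from 189 ± 7.65 to 348 ± 27.6 CPM (SD, n = 2 each), a log2 fold change of 0.88 ± 0.09 by edgeR. Tia1, which binds U-rich RNA beside 5′ splice sites and recruits U1 snRNP, fell from 105 ± 2.2 to 49.7 ± 8.88 CPM (-1.08 ± 0.13). Fubp3 changed by -0.96 ± 0.12 and Zfr by -0.69 ± 0.10. The counts of risen genes without 1 library ran from 10 to 17. For comparison all 11 SR protein genes rose with TMM (median 0.92), 9 with library totals and 2 with mitochondrial scaling. Snrnp70, whose protein carries the degron, had 249 and 243 CPM at 0 h and 451 and 475 CPM at 5 h, and its RNA does not check the loss of the protein.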

How the data were processed

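The authors deposited a table of gene counts for the 4 libraries. The tools named, with no role, in the submitters' processing notes are DESeq2 1.42.0, StringTie 2.2.1 and HISAT2 2.2.1, and the build is mm10. Since counts of 3 and of 4 each occurred more often than counts of 2, the deposited values were treated as estimated counts derived from coverage. They were already whole numbers. Counting error can therefore be larger than the counts show. Annotation and strand setting are not given in the sources used here.

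Genes were kept with filterByExpr and fitted in edgeR 4.0.16 (R 4.3.3) with TMM factors of 1.10, 1.10, 0.927 and 0.896, robust dispersions and the quasi-likelihood test, 5 h minus 0 h, Benjamini-Hochberg adjusted over all genes. CPM values are TMM-normalised, except those of the marker genes, which are per library total. SE is the log2 fold change over the root of F. A floor of 3 counts was 0.169 to 0.418 CPM. In simulated data for this comparison, with 16513 genes, 67, 67 and 66 genes were changed 1.5-fold, 2-fold and 4-fold. Of these 28.4%, 64.2% and 95.5% were called in the right direction. In the real data 43.2% of genes were called, a far larger share than was changed there. The changed genes were also not limited to levels over 50 CPM. These shares therefore do not give the sensitivity for the members. Alternatives were other scalings, DESeq2, limma-voom (limma 3.58.1), other filters, glmTreat, counts divided by 4, a replicate block and leaving out each library.

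The members and lists were chosen with earlier results of these data known. Every member could be named. Values per library were set for the 8 highest and 8 lowest log2 fold changes, members not called and described pairs, and were then given for the other members too. Of related genes the 3 with the lowest adjusted p in each direction were to be named, and 2 that rose are not reported here. Overlapping genes were named after their values were seen. Spans are from RefSeq (GRCm38.p6), matched by symbol for all 36 genes. The difference of Mir6910 from its host was not tested.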

Additional observations from a re-analysis of the deposited data

How the results depend on the processing

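Over 504 comparisons of a gene with an alternative, 417 kept direction and side of the threshold and 31 changed sign, some of which also lost or gained a call. Of those with the same sign 37 lost a call and 19 gained one. The scale mattered most. With library totals 6 members fell, 9 related genes rose and the median of the members was 0.28. With mitochondrial scaling 2 members rose and 16 fell, 1 related gene rose and 19 fell, and the median was -0.30. With library totals Hnrnpf (-0.015), Pcbp2 (-0.046), Khdrbs1 (-0.076), Hnrnpu (-0.14), Ptbp3 (-0.17) and Hnrnpll (-0.24) changed sign. On that scale Celf1, Raly, Syncrip, Ewsr1, Hnrnpa1 and Hnrnpf lost their calls. Mbnl1, Mbnl2 and Taf15 gained calls as falls, there and with mitochondrial scaling. With mitochondrial scaling the values were -0.014 for Hnrnpa2b1, -0.0071 for Hnrnpul2, -0.070 for Ptbp2, -0.091 for Hnrnph3, -0.10 for Ptbp1, -0.15 for Hnrnpab, -0.23 for Hnrnpk, -0.30 for Tardbp, -0.31 for Hnrnpm, -0.43 for Celf1, -0.44 for Raly, -0.46 for Syncrip, -0.52 for Ewsr1, -0.56 for Hnrnpa1, -0.60 for Hnrnpf, -0.63 for Pcbp2, -0.66 for Khdrbs1, -0.73 for Hnrnpu, -0.76 for Ptbp3 and -0.82 for Hnrnpll. Relative to TMM, both scales lower every gene by construction.

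Hnrnpll was at -0.0092 with the stricter filter. Against a fold of 1.2 (glmTreat) 20 members rose and 1 fell. Raly, Syncrip, Ewsr1, Hnrnpa1, Hnrnpf, Elavl1 and Hnrnph2 lost their calls there. Leaving out each library gave 19 to 29 members risen, 1 to 4 fallen, a median of 0.51 to 0.61, and 10 to 17 related genes risen. Single values that turned were those of Mbnl2 (-0.096 to 0.079), Mbnl1 (-0.20 to 0.036), Hnrnpu (-0.018 to 0.28) and Ptbp3 (-0.045 to 0.26). Other tools, filters and counts divided by 4 gave 25 or 26 risen and 2 to 4 fallen. With the replicate block 26 rose and 4 fell, Pcbp2 (edgeR adjusted p = 0.0338) and Taf15 (edgeR adjusted p = 0.0134) being added. Same-numbered libraries deviated together at r = 0.05 over all tested genes, many of them with low counts. Among the members 32 of 36 were higher in replicate 2 at 5 h and 24 of 36 at 0 h, against 48.9% and 47.5% of all tested genes. Whether the numbers pair the libraries cannot be told from these values. The pseudocount of 5 moved no pair by more than its replicate SD. With 2 libraries a group, single genes near the threshold cannot be settled.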
